A study of Mus musculus with 21 samples.

Results

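The genes described here encode 9 proteins that bind the 3′ UTRs of mRNAs and set how long those mRNAs last: *Zfp36*, *Zfp36l1* and *Zfp36l2*, *Elavl1*, *Khsrp* and *Hnrnpd*, *Pum2*, *Rc3h1* and *Rc3h2*. They were chosen by name for this role, and each symbol was matched to 1 gene identifier of the 51467 genes in the count tables. All 9 were among the 14518 genes that passed the filter on low counts (at least 3 CPM, counts scaled to the library total, in at least 3 libraries).

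Nascent and total RNA were measured in V6.5 mouse embryonic stem cells (ESCs) grown with LIF, 2i inhibitors and serum. The cells were the wild-type line and 2 *Ddx6* knockout (KO) lines, each grown from a single cell after CRISPR-Cas9 cutting, and each carrying a frame-disrupting lesion that leaves a premature stop. Wild type was grown as 3 cultures, and clones 1 and 2 of the KO as 2 cultures each. All 7 cultures were given 500 µM 4-thiouridine (4sU), a uridine analog that marks RNA made during labelling, for 30 min, and each gave a 4sU library and a total RNA library, 14 in all. The labels do not say how far the cultures were kept apart, so p values measure the spread between these cultures, and a difference between genotypes is a difference between 1 parental line and 2 clones.

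AU-rich elements (AREs) are short UAUUUAU-type motifs in the 3′ UTRs of many short-lived mRNAs. The zinc-finger proteins of the ZFP36 family (tristetraprolin and its relatives) bind them and recruit the CCR4-NOT deadenylase, KHSRP and HNRNPD (AUF1) also bind AREs and are known to promote decay, and ELAVL1 (HuR) binds AU- and U-rich sequence and is known mostly for stabilizing its targets. PUM2 recognizes the Pumilio element and lowers the level of its target mRNAs, and the Roquin proteins RC3H1 and RC3H2 bind stem-loops in 3′ UTRs and recruit deadenylases. DDX6 is an RNA helicase of P-bodies that links CCR4-NOT to translational repression and decapping.

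Several of these genes carry in their own 3′ UTR the motifs that their proteins read. The sites printed for the Roquin genes are AREs, and the stem-loops that Roquin proteins bind were not searched. The sites printed here are 1 for each gene of the ARE group that has one, the Roquin genes, and both Pumilio elements of *Pum2*; each is given 5′ to 3′ on the transcript strand, as DNA letters, from the principal transcript of the Gencode M21 annotation on GRCm38, with the motif in capitals. Each lies in the 3′ UTR, in an exon. The ARE nonamer is TTATTTATT, which contains the heptamer TATTTAT, and the Pumilio element was searched as TGTANATA, in each case on the transcript strand only.
Zfp36 (chr7:28376951-28376979, minus strand): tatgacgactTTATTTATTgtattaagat
Zfp36l1 (chr12:80108167-80108195, minus strand): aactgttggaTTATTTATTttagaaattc
Zfp36l2 (chr17:84184914-84184942, minus strand): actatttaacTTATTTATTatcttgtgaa
Elavl1 (chr8:4285788-4285816, minus strand): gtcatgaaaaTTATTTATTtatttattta
Rc3h1 (chr1:160970043-160970071, plus strand): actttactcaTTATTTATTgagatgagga
Rc3h2 (chr2:37373287-37373315, minus strand): caaagacattTTATTTATTttactctgta
Pum2, the first element (chr12:8750155-8750182, plus strand): tttatagagaTGTATATAgaattatagt
Pum2, the second element (chr12:8750408-8750435, plus strand): tgtacagaatTGTATATActtataattg

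The heptamer was present in the 3′ UTR of 7 of the 9 genes, against 28.8% of 12041 tested genes with an annotated 3′ UTR, the nonamer in 6 of 9 against 7.62%, and the Pumilio element in 3 of 9 against 25.5%. *Zfp36*, *Zfp36l1* and *Zfp36l2* each had 3 heptamers, in 3′ UTRs of 774, 1835 and 1822 bases. The 3 heptamers of *Zfp36* lie close together, starting at bases 575, 590 and 615 of its 3′ UTR, and only 0.681% of 1615 UTRs between 80% and 125% of its length held as many. In *Elavl1*, 8 heptamers, 7 of them overlapping a neighbour, lay within a short AU-rich stretch that starts at base 3795 of a 4218-base 3′ UTR. Of 922 UTRs of other genes of similar length, 0.108% held as many. *Rc3h2* had 3 heptamers and 1 Pumilio element, *Rc3h1* 2 and 2, and *Pum2* 1 and 2. Most of these 3′ UTRs are longer than the median of 1040 bases over all genes, and at similar length as many heptamers were held by 3.68% of UTRs for *Zfp36l1*, 3.63% for *Zfp36l2*, 15.5% for *Rc3h2*, 46.8% for *Rc3h1* and 50.1% for *Pum2*. Neither *Khsrp* nor *Hnrnpd*, with 3′ UTRs of 1642 and 5429 bases, had a match to any of the motifs. A match is a description of the letters and was not tested as a binding site.

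Levels were compared between genes as CPM per kilobase of exon. In the 4sU libraries of wild-type cells *Zfp36l1* was highest, at 95.4 ± 14.3 CPM per kb (SD, n = 3 cultures), followed by *Hnrnpd* (67.1 ± 1.29), *Khsrp* (41.8 ± 3.57), *Zfp36l2* (33.1 ± 1.66), *Pum2* (25.8 ± 1.63), *Elavl1* (21.6 ± 0.768), *Rc3h1* (15.6 ± 0.953), *Rc3h2* (11.5 ± 1.24) and *Zfp36* (11.4 ± 2.68). Only the last pair in this order, *Rc3h2* and *Zfp36*, had overlapping ranges. In total RNA the order was another: *Khsrp* was highest at 66.0 ± 3.11 CPM per kb, then *Pum2* (45.3 ± 0.958) and *Elavl1* (43.9 ± 2.67), whose ranges overlapped, then *Hnrnpd* (22.3 ± 2.10), *Zfp36l1* (15.0 ± 0.930) and *Rc3h2* (12.4 ± 0.439). *Rc3h1* (10.3 ± 0.555) and *Zfp36l2* (9.04 to 10.9 in its 3 cultures) overlapped each other, and *Zfp36* was lowest at 0.929 ± 0.195 CPM per kb. *Zfp36l1* thus gave the most nascent RNA of the 9 and came after *Khsrp*, *Pum2*, *Elavl1* and *Hnrnpd* in total RNA.

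In *Ddx6* KO cells the order by total RNA per kilobase changed in 2 places. *Zfp36l1* was at 27.9 ± 1.15 CPM per kb (SD, n = 4 cultures), above *Hnrnpd* at 21.3 ± 2.43, with ranges that did not overlap. *Zfp36l2*, at 12.9 ± 1.16, stood above *Rc3h1* at 10.1 ± 0.354, also without overlap. *Rc3h2* reached 21.0 ± 0.928 and overlapped *Hnrnpd*. *Zfp36* was again lowest, at 1.99 ± 0.424 CPM per kb. In 4sU RNA, *Zfp36l1* was again highest (142 ± 8.99), and *Rc3h2* (21.3 ± 2.02), *Rc3h1* (19.1 ± 0.396) and *Zfp36* (18.5 ± 1.26) closed the order, each overlapping the next.

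**Figure D1:**
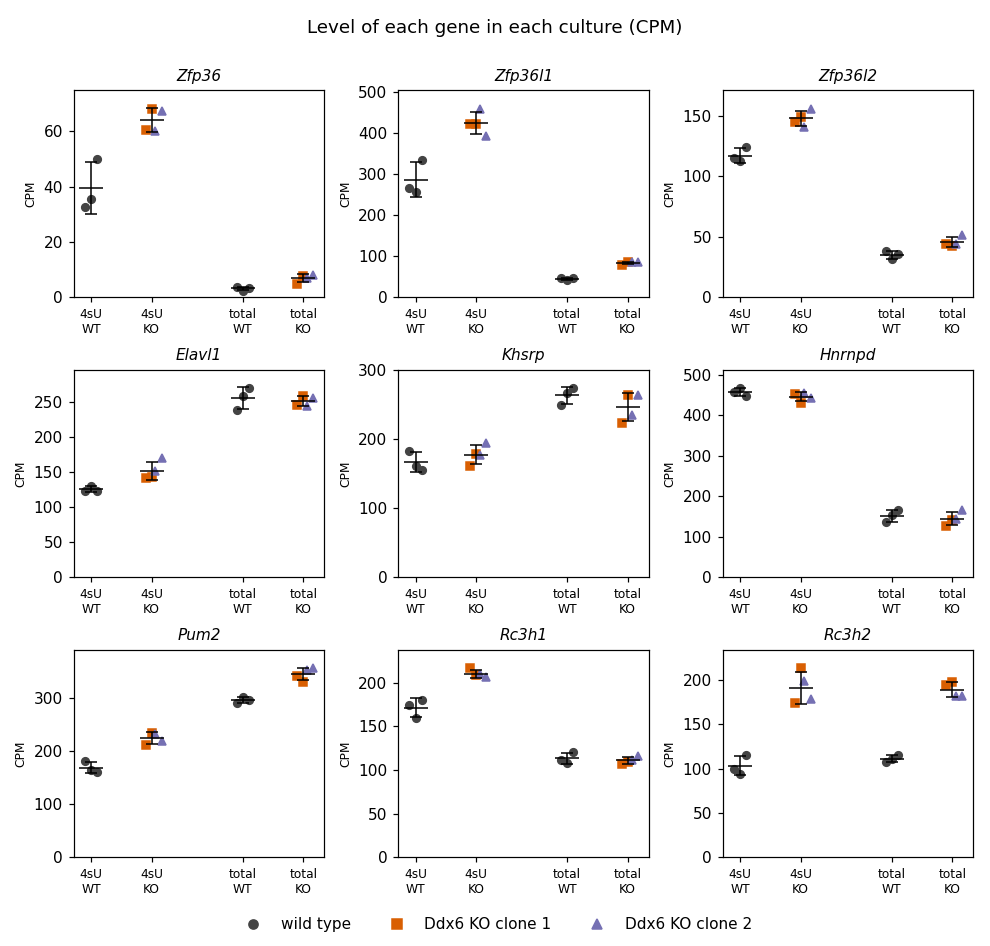
CPM (y axis, from 0) of each of the 9 genes in the 4sU and total RNA libraries of 3 wild-type cultures (circles), 2 knockout cultures from clone 1 (squares) and 2 from clone 2 (triangles), with the mean and SD of each genotype in black. *Zfp36*, *Zfp36l1*, *Zfp36l2* and *Hnrnpd* sit far lower in total than in 4sU RNA, and *Rc3h2* is higher in all 4 KO cultures in both kinds of library.

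The ratio of total to 4sU RNA, which the study used as its measure of mRNA stability, was low for the ZFP36 family in wild-type cells. It was computed for each culture as log2 total minus log2 4sU, on CPM scaled by TMM (trimmed mean of M values) with 0.5 CPM added. It is a relative measure and not a half-life, since each kind of library is scaled to its own total. In *Zfp36* it was −3.03, −3.65 and −3.66 in wild-type cultures 1, 2 and 3, which put its mean of −3.44 ± 0.36 at percentile 2.47 of the 14518 genes, whose median was 0.07. *Zfp36l1* followed at −2.67 ± 0.16 (percentile 7.64) and *Zfp36l2* at −1.73 ± 0.13 (percentile 17.1), and these ranges did not overlap one another.

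*Hnrnpd* had a ratio as low as *Zfp36l2*, at −1.61 ± 0.16 (percentile 18.5), although its 3′ UTR held no heptamer. *Rc3h1* was at −0.61 ± 0.05 (percentile 33.4) and its relative *Rc3h2* at 0.09 ± 0.12 (percentile 50.5), with no overlap between them. The ratio moved with the 4sU run used: *Rc3h1* was at −0.77 with the single-end run alone and −0.36 with the re-sequencing run alone. *Khsrp* (0.65 ± 0.20, percentile 68.0), *Pum2* (0.80 ± 0.12, percentile 72.8) and *Elavl1* (1.01 ± 0.11, percentile 78.8) lay above the median. *Elavl1* thus had the highest ratio of the 9 and also the most heptamers. In *Ddx6* KO cells the 9 genes stood in the same order, from −3.11 ± 0.25 in *Zfp36*, −2.30 ± 0.10 in *Zfp36l1*, −1.65 ± 0.10 in *Zfp36l2* and −1.59 ± 0.17 in *Hnrnpd* to 0.51 ± 0.06 in *Khsrp*, 0.65 ± 0.10 in *Pum2* and 0.76 ± 0.12 in *Elavl1* (SD, n = 4 cultures).

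Over the 12041 genes with an annotated 3′ UTR, the median wild-type log2 ratio was 0.40 in the 8573 with no heptamer, 0.22 in the 2280 with 1, 0.00 in the 753 with 2 and −0.20 in the 435 with 3 or more. The median 3′ UTR length rose over the same classes from 763 to 3280 bases, so motif number and length cannot be told apart here. The ZFP36 family lies far below its class of 3 or more heptamers, *Rc3h2* lies above that class's median and *Elavl1* far above it. The median change of stability in *Ddx6* KO was −0.10 in the classes with 0, 1 and 2 heptamers and −0.09 with 3 or more.

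**Figure D2:**
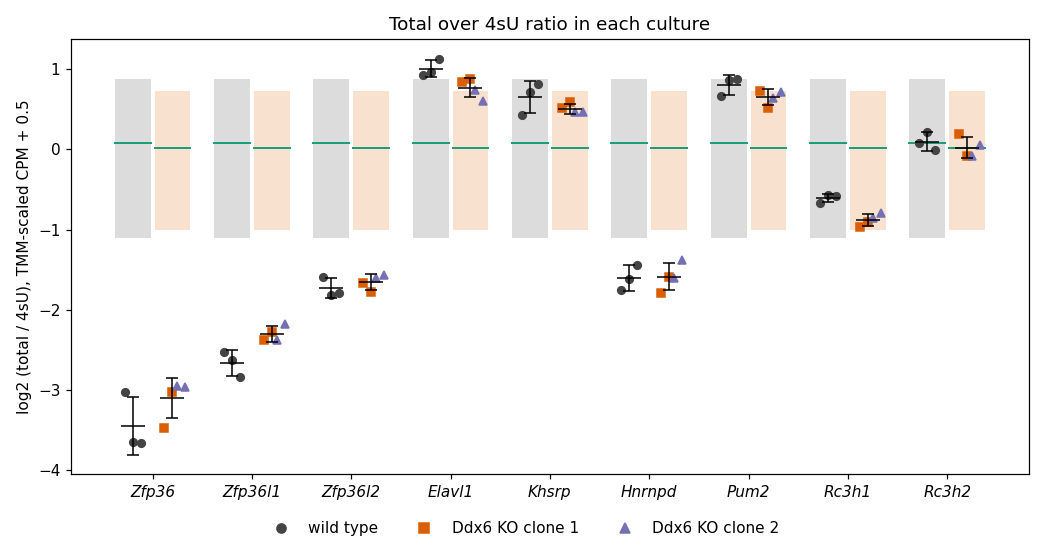
Log2 ratio of total to 4sU RNA (y axis, TMM-scaled CPM + 0.5) of each gene in wild-type (circles), knockout clone 1 (squares) and knockout clone 2 (triangles) cultures, with mean and SD in black. Shaded boxes span the lower to the upper quartile of the 14518 tested genes in wild type (grey) and KO (orange) and green lines give their medians (0.07 and 0.02); the 3 ZFP36 genes and *Hnrnpd* lie below the boxes in both genotypes.

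Facts of the libraries bear on the comparison of genotypes. Library totals were 2441639 to 3570192 counts for 4sU and 5724179 to 7369651 for total RNA. *Ddx6* itself was at 314 to 363 CPM in wild-type total RNA and 22.5 to 70.7 CPM in the KO cultures, with a log2 fold change of −3.12 ± 0.32 (SE, edgeR adjusted p = 9.22e-06). All 8 ESC markers were at 240 CPM or more in every culture, and their summed level was 3810 to 3836 CPM in wild type and 4532 to 4771 in KO total RNA. The 6 fibroblast markers summed to 3.14 to 5.34 CPM in wild type and 11.3 to 13.1 in KO. *Col1a2*, *Col3a1*, *Postn* and *Lum* were under 1 CPM in every culture. *Col1a1* and *Thy1* were at 3 CPM or more in every KO culture, and none of the 6 was so in every wild-type culture. The 6 primed or differentiating markers summed to 32.0 to 34.6 CPM in wild type and 18.05 to 20.1 in KO. All 3 sums moved with genotype, and their part in the results was not tested. In such bulk RNA, fewer cells of a kind and less RNA per cell cannot be told apart.

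The fitted comparison of *Ddx6* KO with wild type addressed which of the 9 genes changed in nascent RNA, in mRNA (total RNA) and in mRNA stability (the change in total over the change in 4sU). At an adjusted p below 0.05, nascent RNA changed in 5 of 9 genes, against 41.6% of all tested genes: *Zfp36*, *Zfp36l1*, *Pum2* and *Rc3h2* rose (20.6% of tested genes rose) and *Hnrnpd* fell (21.0% fell). mRNA changed in 8 of 9 against 50.5%, with 4 higher (*Zfp36*, *Zfp36l1*, *Zfp36l2* and *Rc3h2*, against 19.5%) and 4 lower (*Elavl1*, *Khsrp*, *Hnrnpd* and *Rc3h1*, against 31.0%). mRNA stability changed in 2 of 9 against 12.4%, higher in *Zfp36l1* (3.79% of tested genes) and lower in *Rc3h1* (8.58%). None of the 9 passed a stricter call that also asks for a change of over 2-fold, which 10.9% of tested genes passed in nascent RNA, 10.1% in mRNA and 1.08% in stability. The median log2 change of the 9 genes was 0.13 in nascent RNA, 0.06 in mRNA and −0.07 in stability, beside 0.00, −0.10 and −0.09 over all tested genes.

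Scaling matters for small changes here. With library size alone in place of TMM, the median of all tested genes moved up by 0.21 in nascent RNA and by 0.16 in mRNA on the log2 scale, mRNA changed in 5 of 9 genes, and the mRNA falls of *Elavl1*, *Khsrp*, *Hnrnpd* and *Rc3h1* were no longer called (their log2 fold changes became −0.02, −0.09, −0.07 and −0.03) while *Pum2* was called higher. Relative to the median of all genes, the mRNA changes of *Elavl1*, *Khsrp*, *Hnrnpd* and *Rc3h1* lay 0.08, 0.15, 0.13 and 0.09 lower under either scaling. With library size alone, nascent RNA changed in 7 of 9 genes, with *Elavl1*, *Zfp36l2* and *Rc3h1* called higher and *Hnrnpd* no longer called. With TMM set within each assay, mRNA changed in 6 of 9 genes: *Elavl1*, *Hnrnpd* and *Rc3h1* were no longer called and *Pum2* was called higher. Without wild-type culture 3, mRNA changed in 4 of 9 genes, since *Elavl1*, *Hnrnpd*, *Rc3h1* and *Zfp36l2* were no longer called, and stability in 0 of 9.

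**Figure D3:**
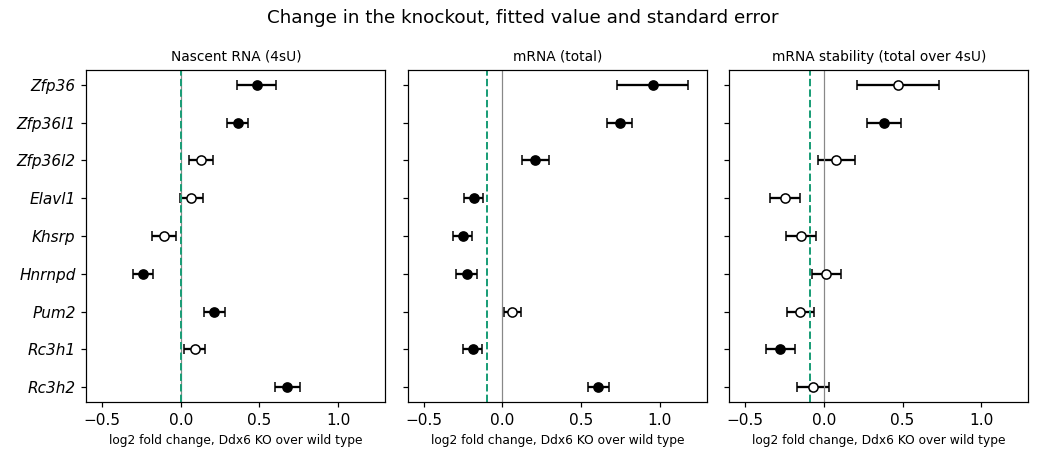
Log2 fold change, *Ddx6* KO over wild type (x axis), in nascent RNA, mRNA and mRNA stability for each gene, as fitted by edgeR over 14 libraries with its standard error; filled circles passed an adjusted p of 0.05. Dashed green lines mark the median of all 14518 tested genes (0.00, −0.10 and −0.09); *Zfp36*, *Zfp36l1* and *Rc3h2* stand to the right in both nascent RNA and mRNA.

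*Zfp36*, which encodes tristetraprolin, the family's founding ARE-binding protein, was at 32.8, 35.7 and 50.1 CPM in 4sU RNA of wild-type cultures 1, 2 and 3. In the KO it was at 60.4 and 68.2 CPM in the cultures of clone 1 and at 60.3 and 67.5 in those of clone 2. In total RNA it was at 3.67, 2.44 and 3.56 CPM in wild type and 4.80, 7.78, 7.06 and 8.04 in KO, in the same order, from 16 to 57 counts a library. Every KO culture was above every wild-type culture in both kinds of library. On this CPM scale the genotypes did not overlap in 7 of the 9 genes in 4sU RNA (46.9% of tested genes) and in 5 of 9 in total RNA (51.8%), each time with KO higher (34.3% and 30.7% of tested genes in that direction). On TMM-scaled CPM, 4 genes were higher (20.5% of tested genes) and 1 lower (21.2%) without overlap in 4sU RNA. In total RNA 3 were higher (20.4%) and 3 lower (32.0%) on that scale. Nascent RNA rose by a log2 fold change of 0.48 ± 0.13 (SE, edgeR adjusted p = 0.00135) and mRNA by 0.95 ± 0.23, or 1.94-fold (adjusted p = 0.000313). The change in stability was 0.47 ± 0.26 and did not pass (adjusted p = 0.257), and the ratios overlapped, at −3.48, −3.03, −2.96 and −2.96 in KO. The total RNA counts of *Zfp36* were the lowest of the 9 genes, and its interval the widest.

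*Zfp36l1*, a relative that binds the same element and per kilobase the highest of the family in both assays, was at 265, 257 and 334 CPM in 4sU RNA of wild-type cells and at 422, 421, 459 and 393 CPM in KO. In total RNA it was at 46.3, 41.5 and 46.4 CPM in wild type and at 78.3, 85.4, 84.9 and 85.2 in KO. The genotypes did not overlap in either assay. mRNA rose by 0.74 ± 0.08 (1.68-fold, adjusted p = 2.01e-11) and nascent RNA by 0.36 ± 0.07 (adjusted p = 1.31e-05). The log2 ratio of total to 4sU was −2.53, −2.63 and −2.84 in wild type and −2.38, −2.27, −2.38 and −2.17 in KO, higher in every KO culture. *Zfp36l1* was the gene of the 9 with a rise in stability, of 0.38 ± 0.11 (adjusted p = 0.0103). It was not called with clone 1 alone (adjusted p = 0.0569) or without wild-type culture 3 (adjusted p = 0.0843), with fitted rises of 0.36 and 0.29.

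*Zfp36l2*, the third family member, had smaller fitted changes. Its 4sU level was 115, 113 and 124 CPM in wild type and 145, 149, 141 and 156 in KO, and its total RNA 38.4, 31.9 and 35.6 CPM against 43.9, 42.2, 44.4 and 51.4. On this scale the genotypes did not overlap, but on TMM-scaled CPM they overlapped in both assays. mRNA rose by 0.21 ± 0.09 (adjusted p = 0.0387), while nascent RNA (0.13 ± 0.08, adjusted p = 0.183) and stability (0.08 ± 0.12, adjusted p = 0.741) did not pass. With library size alone the nascent change was 0.34 and passed (adjusted p = 0.000289). The mRNA call was lost without wild-type culture 2 or 3, without the second culture of clone 2, and with clone 1 alone.

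Since scaling cancels in the ratio of 2 genes of the same library, relatives were also compared within libraries, a comparison added after the data were seen. In total RNA, *Zfp36l1* over *Zfp36l2* per base of exon was 1.498 in wild type and 2.17 in KO, a log2 difference of 0.54 between means of 0.58 ± 0.07 and 1.12 ± 0.13, without overlap. *Zfp36* over *Zfp36l2* in total RNA went from 0.0916 to 0.152, a log2 difference of 0.73, again without overlap. *Zfp36* over *Zfp36l1* overlapped in 4sU and in total RNA, with log2 differences of 0.14 and 0.20. With 3 cultures against 4 the exact two-sided permutation test cannot go below p = 0.0571, which the first and the second of these reached (0.0914 adjusted over the 8 comparisons made), against p = 0.286 and 0.343 for the last.

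Among the other ARE-binding genes, *Elavl1*, whose protein HuR protects many AU-rich mRNAs, was at 123, 131 and 122 CPM in 4sU RNA of wild-type cells and at 141, 143, 151 and 170 CPM in KO. The fitted nascent change was 0.07 (adjusted p = 0.494), and passed with library size alone (0.27, adjusted p = 0.00151). Its total RNA was 238, 257 and 269 CPM against 246, 258, 244 and 255, with full overlap. On the TMM scale mRNA fell, with a log2 fold change of −0.18 ± 0.06 (adjusted p = 0.00768), a call that was lost with library size alone (−0.02, adjusted p = 0.756). The log2 ratio was 0.92, 0.96 and 1.13 in wild type and 0.84, 0.87, 0.74 and 0.61 in KO, lower in all 4 KO cultures. Groups did not overlap in this ratio in 3 of the 9 genes (*Elavl1*, *Rc3h1* and *Zfp36l1*) and in 22.9% of all tested genes. The fitted stability change of *Elavl1*, −0.25 ± 0.09, did not pass (adjusted p = 0.0719), although it did with library size alone (−0.30, adjusted p = 0.0211).

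*Khsrp*, a KH-domain protein of ARE decay, overlapped between genotypes in 4sU RNA (155 to 183 CPM in wild type, 161 to 195 in KO) and in total RNA (250 to 274 against 223 to 265). Its mRNA fell with TMM, at a log2 fold change of −0.25 ± 0.06 (adjusted p = 0.000556), and the call was lost with library size alone (−0.09, adjusted p = 0.208). Neither nascent RNA (−0.11 ± 0.07, adjusted p = 0.262) nor stability (−0.15 ± 0.10, adjusted p = 0.370) passed.

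*Hnrnpd*, which encodes AUF1, overlapped between genotypes in CPM in both assays. Its 4sU level was 457, 466 and 448 CPM in wild type and 453, 431, 456 and 442 in KO, and its total RNA 137, 153 and 165 CPM against 127, 140, 144 and 167. Under TMM, nascent RNA and mRNA both fell, by 0.24 (SE 0.06, adjusted p = 0.00154) and 0.23 (SE 0.07, adjusted p = 0.00344), and both calls were lost with library size alone (−0.04 and −0.07). The mRNA call was also lost with TMM within each assay, with no filter beyond 1 count, without wild-type culture 3 and with clone 2 alone. The mRNA log2 fold change was −0.12 with clone 2 alone and −0.33 with clone 1 alone. Stability did not pass, at 0.02 ± 0.09 (adjusted p = 0.947).

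*Pum2* was at 180, 163 and 160 CPM in 4sU RNA of wild-type cells and at 211, 234, 233 and 219 CPM in KO. Its total RNA was 289, 302 and 295 CPM in wild type and 341, 329, 351 and 355 in KO. Nascent RNA rose by 0.21 ± 0.07 (adjusted p = 0.00649), without overlap on either scale, a call lost with the re-sequencing run alone (0.16, adjusted p = 0.178). mRNA did not pass under TMM (0.06 ± 0.05, adjusted p = 0.345), where the groups overlapped, but did with library size alone (0.22, adjusted p = 0.000569) and with TMM set within each assay (0.16, adjusted p = 0.0145). Stability was at −0.15 ± 0.09 (adjusted p = 0.277).

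The Roquin genes are a pair of relatives. *Rc3h2*, whose protein Roquin-2 overlaps in function with Roquin-1, was at 99.9, 94.2 and 116 CPM in 4sU RNA of wild-type cells and at 174, 213, 199 and 178 CPM in KO. Its total RNA was 107, 111 and 115 CPM in wild type and 194, 198, 182 and 181 in KO. Nascent RNA rose by 0.68 ± 0.08 (1.60-fold, adjusted p = 1.24e-10), the largest nascent rise of the 9, and mRNA by 0.61 ± 0.07 (1.52-fold, adjusted p = 1.64e-11). The stability change was −0.07 ± 0.10 (adjusted p = 0.745). The nascent and mRNA rises were called under all 17 alternatives run, with log2 fold changes of 0.56 to 0.88 in nascent RNA and 0.56 to 0.77 in mRNA.

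*Rc3h1*, which encodes Roquin-1, was at 174, 160 and 181 CPM in 4sU RNA of wild-type cells and at 217, 209, 210 and 206 CPM in KO, and its total RNA was 112, 108 and 120 CPM against 107, 109, 111 and 116. The fitted nascent change did not pass (0.09 ± 0.07, adjusted p = 0.294), but did with library size alone (0.29, adjusted p = 0.000183). mRNA fell by 0.19 (SE 0.06, adjusted p = 0.00941) under TMM, a call lost with library size alone (−0.03, adjusted p = 0.704), with TMM within each assay (−0.10, adjusted p = 0.200), with no filter beyond 1 count, with the replicate number as a block, with clone 2 alone and without wild-type culture 3. The log2 ratio was −0.66, −0.58 and −0.59 in wild type and −0.97, −0.91, −0.86 and −0.80 in KO, without overlap, and the fitted stability fell by 0.28 (SE 0.09, adjusted p = 0.0337). This call was lost under 12 of 18 alternatives, whose adjusted p ranged from 0.00862 to 0.248, and the fitted change was −0.33 to −0.19 in all of them. *Rc3h1* has 3 annotated genes on its own strand inside its span and *Rc3h2* has 1 (*Snord90*), and reads in exons shared by 2 genes are not assigned by the counting used. The pseudogene *Zfp36l1-ps* held at most 3 counts in any library.

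Within libraries, *Rc3h2* over *Rc3h1* per base of exon was 0.736 in wild type and 1.11 in KO 4sU RNA, and 1.20 and 2.08 in total RNA. In total RNA the log2 ratio was 0.23, 0.33 and 0.23 in wild type and 1.15, 1.15, 1.00 and 0.94 in KO, a difference of 0.80. The ratio was higher in both clones than in any wild-type culture, in both assays (exact permutation p = 0.0571 for each, the smallest possible, and 0.0914 adjusted over the 8 comparisons).

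**Figure D4:**
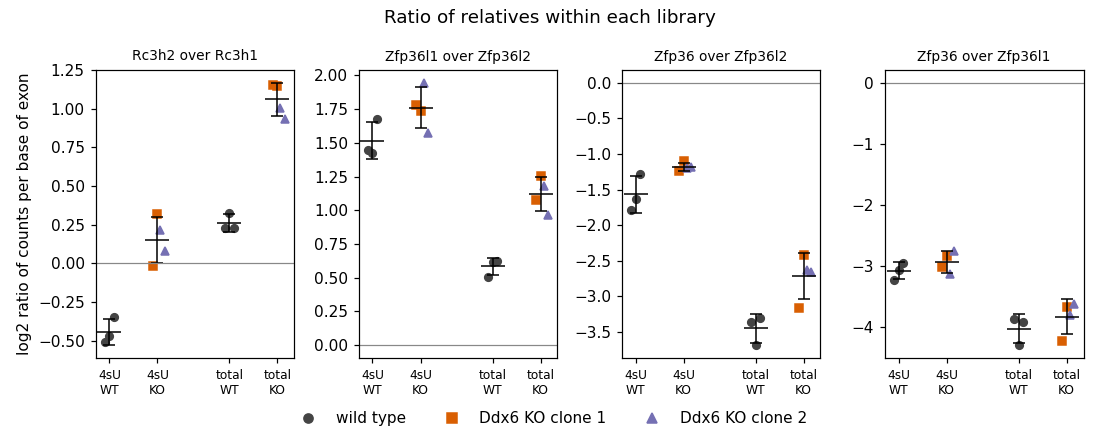
Log2 ratio of counts per base of exon (y axis) of 4 pairs of relatives in 4sU and total RNA of wild-type cultures (circles) and of knockout cultures from clone 1 (squares) and clone 2 (triangles), with mean and SD in black; the y axes differ between panels. *Rc3h2* over *Rc3h1* and *Zfp36* over *Zfp36l2* do not overlap between genotypes in either assay, *Zfp36l1* over *Zfp36l2* overlaps in 4sU only and *Zfp36* over *Zfp36l1* in both assays.

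The clones were also compared, after the data were seen. Clone 2 minus clone 1 was fitted by edgeR in a separate model of all 14 libraries, with a group for each clone in each assay. It passed for 0 of the 9 genes in nascent RNA, mRNA and stability (0, 1 and 0 genes at an unadjusted p below 0.05). Of all tested genes, 25, 43 and 1 passed (0.172%, 0.296% and 0.00689%), and 950, 960 and 586 were at an unadjusted p below 0.05. The gene at an unadjusted p below 0.05 was *Hnrnpd* in mRNA, 0.22 ± 0.08 higher in clone 2 (adjusted p = 0.526).

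As a description of pattern over the 14 libraries, the tested genes whose log2 TMM-scaled CPM correlated best with *Zfp36* were its relative *Zfp36l1* (Pearson r = 0.995), *Tigd2* (0.992) and *Zfp57* (0.992). For *Pum2* they were *Ddx10*, *Copg2* and *Zfp740* (0.994 to 0.992), and for *Rc3h1* *Gm25108*, *Rbm12b2* and *Rbm12b1* (0.993 to 0.991). These 14 points span both assays and both genotypes, and pairs of them share a culture. For *Zfp36* the gap between assays (log2 ratio −3.44 in wild type) exceeds its genotype changes (0.48 in nascent RNA, 0.95 in mRNA). Its r thus reflects assay more than genotype and is not evidence of shared regulation.

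A list of 56 other regulators that bind 3′ UTRs, 50 of them tested, gives the setting of these genes. Nascent RNA rose in 14 and fell in 13 (27 of 50 called, against 41.6% of all tested genes). mRNA rose in 13 and fell in 20 (33 of 50 called, against 50.5%). Stability rose in 3 and fell in 7 (10 of 50 called, against 12.4%). The called share of this list was thus above that of all tested genes in each case. The medians were 0.00, −0.13 and −0.10, close to those of all tested genes. Against 10.9% and 10.1% of all tested genes, the 2-fold call was passed by 7 of the 50 in nascent RNA and by 8 in mRNA. The largest nascent rises were in *Lin28b* (1.74), the let-7 inhibitor, *Zc3h12a* (1.39), an RNase known as Regnase-1 that shares targets with Roquin, and *Tia1* (1.32). The largest nascent falls were in *Nanos1* (−1.17 ± 0.13, SE), *Nanos3* (−1.15 ± 0.40), both partners of Pumilio proteins, and *Celf2* (−0.97 ± 0.28).

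In mRNA, *Lin28b* (1.41 ± 0.10, SE), *Celf4* (1.29 ± 0.21) and *Elavl4* (1.12 ± 0.46), a neuronal relative of *Elavl1*, rose most. *Nanos3* (−2.42 ± 0.54), *Celf2* (−1.88 ± 0.21) and *Cpeb1* (−1.10 ± 0.28) fell most. Stability rose in *Nufip2* (0.42), a cofactor of Roquin, *Hnrnpdl* (0.31), a relative of *Hnrnpd*, and *Hnrnpa0* (0.25). Its largest falls were in *Zc3h12a* (−0.84), *Msi2* (−0.49) and *Igf2bp3* (−0.48). Several of the 9 proteins recruit CCR4-NOT or other decay factors. A list of 18 genes of deadenylation (CCR4-NOT among them), decapping and 5′ decay was tested in full. It is called decay enzymes below, though not all of its genes encode enzymes. Nascent RNA rose in 7 and fell in 4 (61.1% called, against 41.6% of all tested genes). mRNA rose in 4 and fell in 9 (72.2% against 50.5%), and stability rose in 1 and fell in 4 (27.8% against 12.4%). The median log2 changes were 0.05, −0.14 and −0.19, beside 0.00, −0.10 and −0.09 over all tested genes. None passed the 2-fold call, against 10.9%, 10.1% and 1.08% of all tested genes.

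A list of 36 mRNAs known to carry AREs, many of them immediate early genes, was also compared. Of the 29 tested, nascent RNA rose in 15 and fell in 9 (20.6% and 21.0% of all tested genes). mRNA rose in 16 and fell in 5 (19.5% and 31.0%), and stability rose in 10 and fell in 1 (3.79% and 8.58%). The median log2 changes were 0.36, 0.59 and 0.21, beside 0.00, −0.10 and −0.09 over all tested genes. Of the list, 6 genes passed the 2-fold call in nascent RNA, 8 in mRNA and 0 in stability. Of all tested genes, 10.9%, 10.1% and 1.08% passed it. The wild-type ratio of total to 4sU of the listed genes was low, with a median log2 of −1.86 and 26 of 29 below the median of all genes, near *Zfp36l2* among the 9 genes.

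Nascent RNA of this list rose most in *Egr1* (3.74 ± 0.48, SE), *Ptgs2* (2.81 ± 0.14) and *Plaur* (2.69 ± 0.18). It fell most in *Mycn* (−0.88), *Mcl1* (−0.59) and *Nfkbiz* (−0.58). mRNA rose most in *Ptgs2* (2.82), *Plaur* (2.76) and *Junb* (2.03) and fell most in *Nfkbiz* (−1.24), *Mcl1* (−0.60) and *Pim1* (−0.59). Stability rose most in *Mycn* (1.00), *Junb* (0.74) and *Jun* (0.73), and *Pim1* (−0.29) was the gene of the list that fell. The list was put together with earlier results of these data known and is not independent evidence of a direction.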

How the data were processed

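The deposited values are raw counts per gene, made by the authors: reads were trimmed with Cutadapt 1.14, mapped to mm10 with STAR 2.5.3a, and unique reads were counted strand-specifically with featureCounts 1.5.3 on the Gencode M14 basic annotation without rRNA genes. Gene length (other deposited column) is the summed exon length. The 7 4sU libraries were sequenced again, and both runs were summed as counts, reads in one and fragments in the other. The 92 spike-in rows held 0 counts and were left out.

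Counts were tested with the edgeR 4.0.16 quasi-likelihood test (R 4.3.3, robust, TMM over 14 libraries, genotype by assay, Benjamini-Hochberg adjustment over 14518 genes). The low-count filter asked for 3 CPM or more in 3 or more libraries. Ratios and exact permutation tests used scipy 1.17.1. The code was checked on simulated data. Alternatives are DESeq2 1.42.0, limma-voom (limma 3.58.1), other scalings, single runs, single clones, replicate blocks and leaving out each culture.

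Besides the 9 genes and *Ddx6*, the text names up to 3 genes with the largest rise and 3 with the largest fall per contrast among those called in the lists of other regulators and of ARE mRNAs, and the 3 genes most like *Zfp36*, *Pum2* and *Rc3h1*. Another gene that the naming rule covers is not reported here. The members and lists were chosen with earlier results of these data known. Both libraries of a culture deviated together little (r 0.0028 to 0.122), and same-numbered libraries of different genotypes at r −0.0368 to 0.0862, so replicate numbers were not taken to pair samples.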

Additional observations from a re-analysis of the deposited data

Results flagged for a closer look

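In 27 sets of 4 *Ddx6* KO values (9 genes, 4sU CPM, total CPM and log2 ratio of total to 4sU), 2 held a value far from the others by Dixon's gap test, and chance alone flags about 1 in 20 such groups. Both were in the first culture of clone 1. *Zfp36l1* was at 78.3 CPM in total RNA there, against 84.9 to 85.4 in the other KO cultures, and the wild-type cultures were at 41.5 to 46.4. *Zfp36* had a log2 ratio of −3.48 there, against −3.03 to −2.96 in the other 3, and its total RNA in that culture rested on 29 counts. Without that culture the *Zfp36* stability change did not pass either.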

How the results depend on the processing

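Each of the fits was repeated under 17 alternatives, or 18 for stability, and counts are out of the 9 genes unless a list is named. Under the stricter call with a 2-fold change, 0 of the 9 genes remained in nascent RNA, mRNA and stability. Of the other regulators that call left 7, 8 and 0 in the same order, of the decay enzymes 0, 0 and 0, and of the ARE mRNAs 6, 8 and 0. With library size alone 5 genes changed in mRNA, and without a filter beyond 1 count also 5. Stability changed in 1 gene with DESeq2, with TMM within each assay, with no filter beyond 1 count, with either run alone and with either clone alone. That gene was *Rc3h1* with clone 1 alone and *Zfp36l1* under each of the others, so neither was called in both clones taken alone. For decay enzymes, clone 1 alone gave 6 in nascent RNA, clone 2 alone gave 7 in nascent RNA and 8 in mRNA, library size alone gave 8 in mRNA and no filter gave 7. For the other regulators, clone 1 alone gave 5 in stability.

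Leaving out 1 culture at a time gave 4 to 8 genes with changed mRNA, 5 in nascent RNA each time, and 0 to 2 in stability, with the low ends without wild-type culture 3. In the other lists the counts most affected were 6 to 12 regulators in stability (6 without wild-type culture 1 or 2, against 10) and 6 to 10 decay enzymes in nascent RNA (6 without wild-type culture 2, against 11).

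Values that changed sign were all small. *Hnrnpd* stability became −0.084 with clone 1 alone, −0.032 with library size alone and −0.035 with the re-sequencing run alone, and was −0.058 to 0.10 with a culture left out. *Rc3h2* stability became 0.021 with TMM within each assay and 0.050 with the re-sequencing run, and *Zfp36l2* stability −0.016 with that run. *Elavl1* nascent RNA became −0.014 with clone 1 alone and −0.0074 with the re-sequencing run, and *Khsrp* nascent RNA 0.10 with library size alone. The *Rc3h2* log2 ratio in KO became −0.019 with library size alone and −0.12 with the single-end run, and −0.036 to 0.056 with a culture left out. Other ratios moved without a change of sign when 1 of the 4sU runs was used alone. With the single-end and the re-sequencing run, *Zfp36l2* in wild type was at −1.90 and −1.47, and *Khsrp* in KO at 0.41 and 0.67. Why these moved was not tested.

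With the replicate number as a replicate block, 5 genes changed in nascent RNA, 7 in mRNA (*Rc3h1* was not called) and 2 in stability, and with the culture as a replicate block 2 changed in stability. Replicate numbers are only names here, and same-numbered libraries did not deviate together. Depth limits *Zfp36* most: its 16 to 57 counts in total RNA leave its stability change with an SE of 0.26.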
